A study of Mus musculus with 8 samples.

Results

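The comparison of omentum culture supernatant alone (OMsup) with no treatment rests on 4 of the 8 arrays of the study, 2 per group. Its members are the arrays titled OMsup and untreated, and 18503 of 45281 probes were tested, those whose detection p was below 0.05 on 2 or more of the 8 arrays. All samples were macrophages grown from C57BL/6 bone marrow with M-CSF, the macrophage growth factor, for 7 days. The OMsup group then received culture supernatant of omentum in a serum-free macrophage medium, and RNA followed after 24 h. The other groups received all-trans retinoic acid (ATRA, 1 µM) or ATRA and OMsup together, likewise in that medium and for 24 h. They served here to read the supernatant's effect again, from group means that the first comparison does not use. All 8 arrays were normalized, filtered and fitted together, with a shared estimate of the spread of each probe. The calls of the 2 comparisons are therefore not independent. Whether untreated cells were moved to the serum-free medium is not stated in the labels, so a difference from them may include the medium. They give no amount or donor of the supernatant and do not say whether replicates were separate cultures or animals, so the p-values cover the spread among these samples alone, and that spread may be technical. Which chip held which sample is not given, so a chip cannot be used as a block.

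The omentum is a fold of the peritoneum rich in fat and in clusters of immune cells, and its supernatant holds whatever its cells release. Macrophages read such signals through cytokine receptors that activate STAT factors, through receptors for microbial products that act by NF-kB and interferon regulatory factors, and through nuclear receptors for lipids. They answer by changing which mediators they release, which chemokines they follow, how they remodel matrix and how they use nutrients. STAT3 is activated by cytokines such as IL-6 and interleukin 10, and its target SOCS3 dampens IL-6 type signals. Interferon regulatory factors act at interferon-stimulated response elements, and hypoxia-inducible factors at a short core sequence near genes of glucose use.

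Between 16116 and 16784 probes were detected per array. Replicate arrays correlated across probes at 0.99125 in the untreated and 0.99108 in the OMsup group, and the median SE of a change was 0.176 on the log2 scale. Values per array below are log2 normalized intensities, changes are log2 differences with the SE of the fit (n = 2 arrays per group), and "called" means an adjusted p under 0.05 in limma. Of the macrophage markers fixed for the check, 7 of 7 with a probe were detected in both groups, and 1, Cd14, fell. No mesothelial (0 of 7), adipocyte (0 of 7) or fibroblast (0 of 8) marker was detected on both arrays of either group, and 7, 6 and 6 of them were undetected on all 4 arrays. Of 9 granulocyte markers with a probe, 8 were detected on both untreated and 7 on both OMsup arrays. Of 6 endothelial markers, 0 were detected on both untreated and 2 on both OMsup arrays, and the summed intensity ran from 121 to 132 and from 136 to 138. Esam among them was called higher (0.60), a call lost under 5 of the other processing settings. In bulk RNA, fewer cells of a type and less RNA per cell cannot be told apart.

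OMsup changed 1449 of 18503 probes, 7.83% (717 higher and 732 lower). With each gene represented by its brightest tested probe, 456 of 10068 named genes rose (4.53%) and 480 fell (4.77%), and the median change over all genes was -0.005. Dropping untreated array 1 or 2 left 954 or 776 called probes, and dropping OMsup array 1 or 2 left 930 or 843. Of the called genes, 394 changed at least 2-fold and 80 at least 4-fold. At the edges of detection, 423 genes were seen on no untreated array but on at least 1 OMsup array, of which 40 were called higher, and 483 showed the reverse, of which 56 were called lower. The calls of 405 genes, 215 higher and 190 lower, held under all 17 other processing settings run for single genes. Genes named below with values are of these 405 unless stated otherwise.

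The functions touched were uneven. Of 62 lists of genes grouped by function, with 1705 different genes tested, 181 genes rose and 169 fell, with a median of -0.008. Lists of protein synthesis, the proteasome, splicing and the respiratory chain stood near or below the background shares. The actin and tubulin lists held more fallers than the background and autophagy more risers. Lists of lipid mediators, matrix proteins and sterol and sugar metabolism held many risers, and lists of interferon targets, MHC class II and mitosis many fallers. Chemokine genes were called both ways. The lists were written with earlier results of these data known and none was tested, so the shares describe the lists chosen. Counts by list below stand beside 4.53% higher and 4.77% lower among all named genes. The plot of the shares by list shows the whole range.

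**Figure D1:**
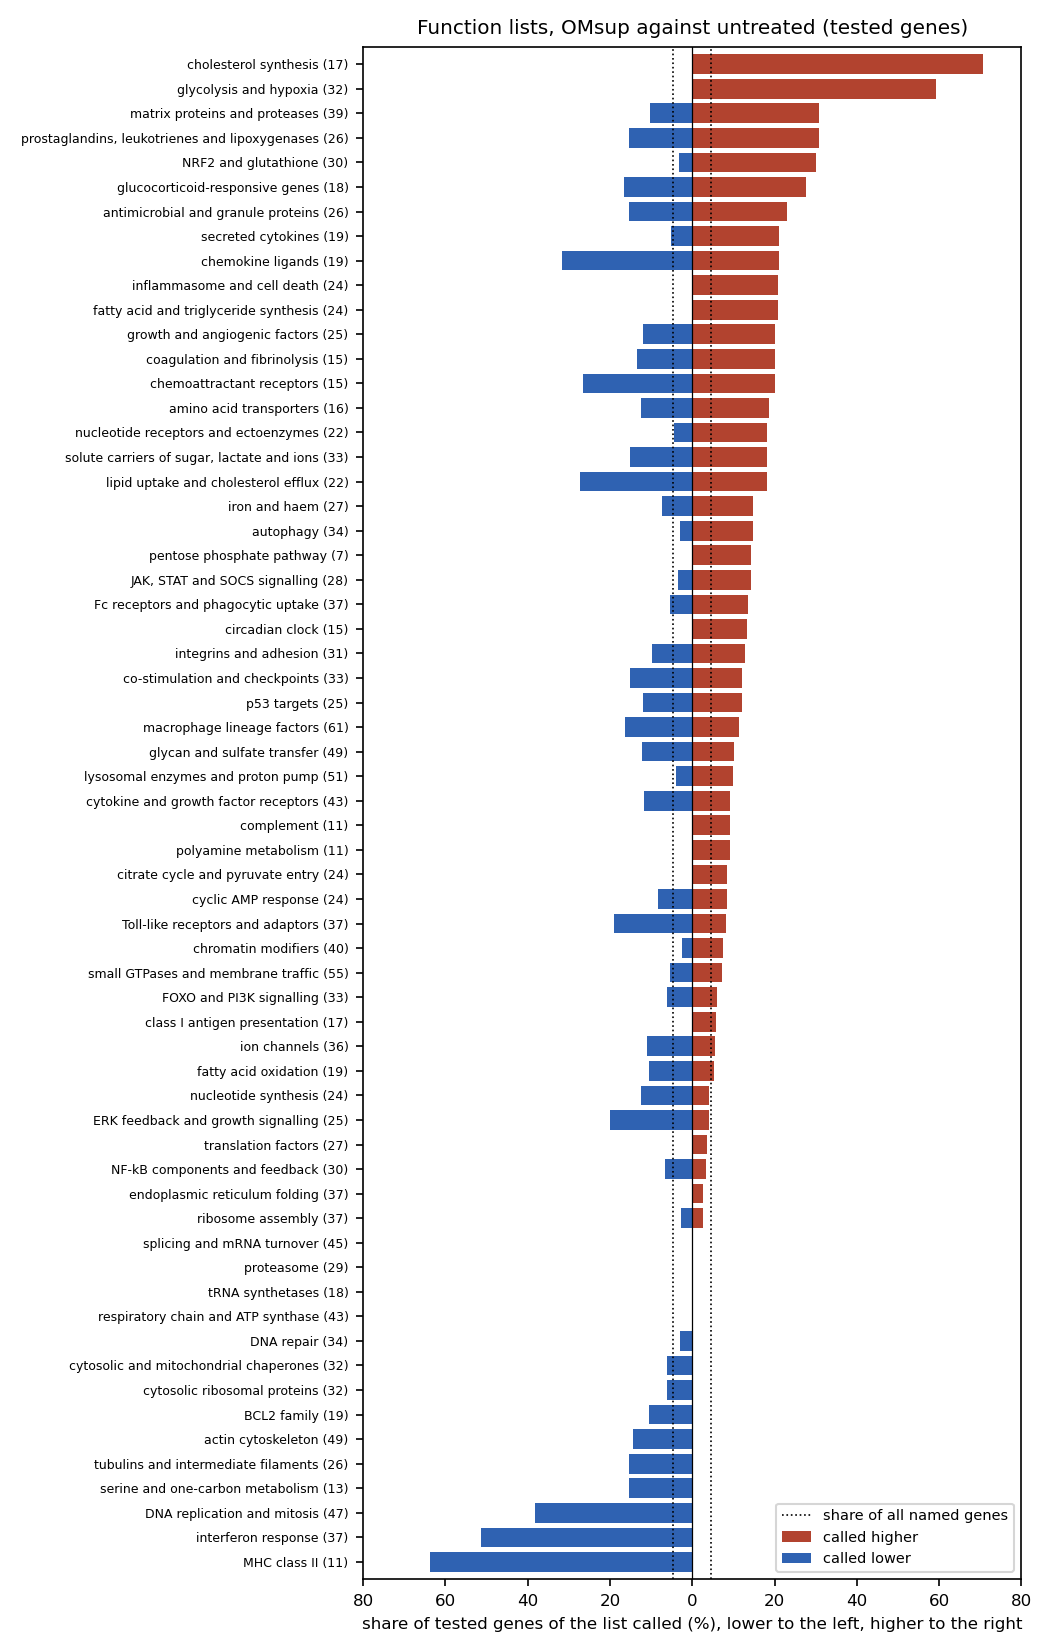
Share of the tested genes of each function list called higher (red, to the right) or lower (blue, to the left) with OMsup, in percent, with the number of tested genes in parentheses and dotted lines at the shares of all named genes (4.53% and 4.77%). Cholesterol synthesis (12 of 17 higher) and MHC class II (7 of 11 lower) lie at the ends, and 4 lists have no called gene.

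The genes with the 8 largest rises were Saa3, Socs3, Tnfsf14, Lrg1, Nrg1, Ednrb, Hp and Gcnt2, and those with the 8 largest falls were Slamf9, Ccnd1, Ifit3, Pparg, Hpgd, Kif23, Cdkn1c and Cx3cr1. The ranks below them held genes of several kinds. Spint1, which encodes a membrane-bound inhibitor of serine proteases, read 5.83 and 5.55 on the untreated and 9.37 and 9.39 on the OMsup arrays, a change of 3.69 (SE 0.177, adjusted p = 1.05e-06). A dimmer Spint1 probe changed by 0.95. Sphk1, the kinase that makes sphingosine 1-phosphate, read 4.75 and 4.59 against 7.74 and 7.98, a change of 3.19 (SE 0.186, adjusted p = 3.01e-06). Clec4n, which encodes the fungal mannan receptor dectin-2, read 9.30 and 9.01 against 12.44 and 12.34. Its probe may also bind transcripts of closely related lectin genes. Gja1, the gap junction protein connexin 43, read 4.50 and 4.79 against 7.28 and 7.73. These 4 genes were chosen among the largest rises with both OMsup arrays beyond both untreated ones, so their wide gaps are no separate result.

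Mgarp, which encodes a mitochondrial protein induced by low oxygen, was not detected on either untreated array and was at least 8.53-fold higher (adjusted p = 1.76e-06). Among the falls, the transcription factor gene Sox4 read 6.63 and 7.04 in untreated cells and was not detected on the OMsup arrays, at least 4.68-fold lower (adjusted p = 8.56e-05), while a dimmer Sox4 probe changed by 0.177. Rasgrp3, an activator of Ras and Rap proteins, read 8.15 and 7.74 against 5.43 and 5.87, a change of -2.29 (SE 0.252). Tle1, a transcriptional corepressor, changed by -2.05 (SE 0.165), and its other probes by -1.49 to -2.17. Stap1, an adaptor of receptor tyrosine kinases, read 10.15 and 10.27 against 7.84 and 8.42. Dcstamp, which is needed for the fusion of osteoclasts and giant cells, changed by -2.09 (SE 0.205) and was detected on 1 of the OMsup arrays.

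Among signalling genes, the calls in the JAK and STAT pathway were mainly higher and those in the Toll-like receptor pathway mainly lower. In the JAK, STAT and SOCS list 4 of 28 genes rose and 1 fell (median 0.10). Stat3 read 9.28 and 9.27 on the untreated and 10.60 and 10.32 on the OMsup arrays, a change of 1.19 (SE 0.132, adjusted p = 0.000235), and its other probes changed by 1.11 to 1.45. Socs3 read 6.14 and 5.71 against 11.19 and 11.35. The list of cytokine and growth factor receptors moved both ways, with 4 of 43 genes higher (9.3%) and 5 lower (11.6%). Of all named genes 4.53% were higher and 4.77% lower. Both chains of the receptor for interleukin 13 rose. Il4ra was not detected on the untreated arrays and was at least 2.59-fold higher (adjusted p = 0.000115), and Il13ra1 changed by 1.43 (SE 0.158, adjusted p = 0.000226). Il27ra, the interleukin 27 receptor subunit, changed by -1.39 (SE 0.194), and Ebi3, a subunit of interleukin 27 itself, by -1.55 (SE 0.146).

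The list of Toll-like receptors, lectin receptors and their adaptors had 7 of 37 genes lower (18.9%) and 3 higher (median -0.05). Clec7a, which encodes the beta-glucan receptor dectin-1, read 10.02 and 10.10 in untreated and 8.18 and 8.73 in OMsup cells, a change of -1.60 (SE 0.258, adjusted p = 0.00286). Its fall set it apart from Clec4n, the other fungal lectin receptor gene named here, which rose. Cd180, a relative of TLR4 that modifies lipopolysaccharide responses, changed by -1.34 (SE 0.22). Cd14, the lipopolysaccharide co-receptor, read 12.14 and 12.16 against 11.13 and 11.32. The interferon regulatory factor genes Irf7 and Irf5 changed by -1.36 and -1.10, and the kinase gene Irak2, which acts after MyD88, by -0.92. Myd88, the adaptor itself, rose by 0.69 (SE 0.112), and Sting1, the receptor for cyclic dinucleotides, by 1.28 (SE 0.167). Of the NF-kB components and feedback genes 1 of 30 rose (3.33%) and 2 fell (6.67%), near the shares of all named genes. None of these calls held under every setting.

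Feedback genes of the ERK kinase pathway fell in 5 of 25 cases and 1 rose (median -0.19). Dusp4, a phosphatase of ERK, read 7.40 and 7.82 against 5.71 and 5.94, a change of -1.79 (SE 0.188, adjusted p = 0.00016). Etv5, an ERK-responsive transcription factor, changed by -1.14 and Spred1, an inhibitor of Ras signalling, by -1.03. Ier3, the riser of the list, is also a target of NF-kB and STAT3 and read 9.03 and 8.81 against 11.40 and 11.77. Rgs1, which shortens signals of G protein-coupled receptors, read 9.87 and 9.96 against 7.49 and 7.62, and Gnas, the stimulatory G protein alpha subunit, changed by -0.94 (SE 0.139). The other Rgs1 probes changed by -2.16 to -2.35.

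Secreted cytokines and chemokines split. Of 19 tested cytokine genes, 4 rose and 1 fell, and all 5 calls held. Tnf, the inflammatory cytokine, read 7.62 and 7.60 on the untreated and 5.63 and 5.29 on the OMsup arrays, a change of -2.15 (SE 0.199, adjusted p = 6.18e-05). Il1b, another inflammatory cytokine, went the other way and read 5.88 and 5.32 against 7.24 and 7.39, a change of 1.72 (SE 0.203, adjusted p = 0.000374). Mif, the macrophage migration inhibitory factor, read 12.21 and 12.24 against 13.66 and 13.73. Tnfsf9, the ligand of the T cell receptor 4-1BB, changed by 1.06 (SE 0.189). These genes are named because they were called, so the gap between their groups is no separate result.

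Of 19 chemokine genes, 6 fell (31.6%) and 4 rose (21.1%). Ccl3 and Ccl4, which encode inflammatory attractants of leukocytes, both fell. Ccl3 read 10.68 and 10.46 against 8.61 and 8.50 (change -2.01, SE 0.129, adjusted p = 5.46e-06), and Ccl4 changed by -1.75 (SE 0.172). Ccl5 changed by -2.04 (SE 0.245), and the neutrophil attractant Cxcl1 read 6.33 and 6.42 against 4.88 and 5.26. Among the risers, Pf4, a platelet-type chemokine that macrophages also make, read 7.52 and 7.18 against 10.43 and 10.91, a change of 3.32 (SE 0.186, adjusted p = 2.45e-06). Ppbp, a second platelet-type chemokine, changed by 1.50 (SE 0.297, adjusted p = 0.00963), a call that did not hold under every setting. Of the 5 megakaryocyte markers with a probe, Pf4 and Ppbp alone were called, Gp1bb was undetected on all 4 arrays, and the summed intensity ran from 236 to 293 in untreated and from 1528 to 2116 in OMsup cells. That sum includes Pf4 itself, so it is no separate measure of such cells, and their part in the result was not tested. Ccl12, a ligand of CCR2, changed by 1.14 (SE 0.165), and its transcripts resemble those of Ccl2 and Ccl7.

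The receptors that steer migration were rearranged. Ccr2, the receptor of monocyte attractants, read 5.62 and 5.17 on the untreated and 7.93 and 7.89 on the OMsup arrays, a change of 2.52 (SE 0.196, adjusted p = 1.85e-05). Cx3cr1, the fractalkine receptor, read 8.08 and 7.91 against 5.40 and 5.29, a change of -2.65 (SE 0.241, adjusted p = 5.4e-05). Cxcr4, the receptor of CXCL12, changed by 1.32 (SE 0.164). Ltb4r1, the leukotriene B4 receptor, read 5.91 and 5.98 against 9.30 and 8.93, a change of 3.17 (SE 0.208, adjusted p = 6.03e-06). Of the 15 receptors tested, 3 rose and 4 fell. Among receptors of nucleotides and adenosine and their ectoenzymes, 4 of 22 genes rose (18.2%) and 1 fell (4.55%). Adora3, the adenosine A3 receptor, read 4.59 and 5.01 against 7.93 and 7.62, whereas P2ry1, a receptor of ADP, read 8.41 and 8.33 against 5.65 and 5.82. Bst1, an ectoenzyme that consumes NAD, changed by 1.97 (SE 0.264), with untreated arrays of 5.26 and 4.32.

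Lipid mediator genes were among the lists with the largest share called, 8 of 26 higher (30.8%) and 4 lower (15.4%), with a median of 0.21. These enzymes turn arachidonic acid into leukotrienes by way of 5-lipoxygenase and its helper FLAP, or into prostaglandins by way of cyclooxygenases. On the leukotriene side, Alox5ap, which encodes FLAP, read 13.47 and 13.54 in untreated and 14.18 and 14.03 in OMsup cells, a change of 0.60 (SE 0.103, adjusted p = 0.00404). Mgst2, a microsomal transferase that can make leukotriene C4, read 6.11 and 5.86 against 8.43 and 8.63, a change of 2.54 (SE 0.173, adjusted p = 8.09e-06). Ltc4s, the main leukotriene C4 synthase, changed by 0.69 (SE 0.156, adjusted p = 0.0205), a call that did not hold under every setting. Cysltr1, the receptor of cysteinyl leukotrienes, read 8.23 and 7.96 against 9.36 and 9.65, so that with Ltb4r1 a receptor of each leukotriene class rose.

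On the prostaglandin side, Hpgd, the enzyme that inactivates prostaglandin E2, read 8.52 and 8.38 against 5.54 and 5.92, a change of -2.72 (SE 0.226, adjusted p = 2.89e-05). Ptger2, a prostaglandin E2 receptor, read 5.89 and 5.49 against 7.18 and 7.37, a change of 1.58 (SE 0.211, adjusted p = 0.000817). Pla2g7, which degrades platelet-activating factor, changed by 1.97 (SE 0.205). Ephx1, the microsomal epoxide hydrolase, changed by -1.38 and Mgst3 by -0.76, while Mgst1 rose by 0.99. Levels of the lipids themselves were not measured.

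**Figure D2:**
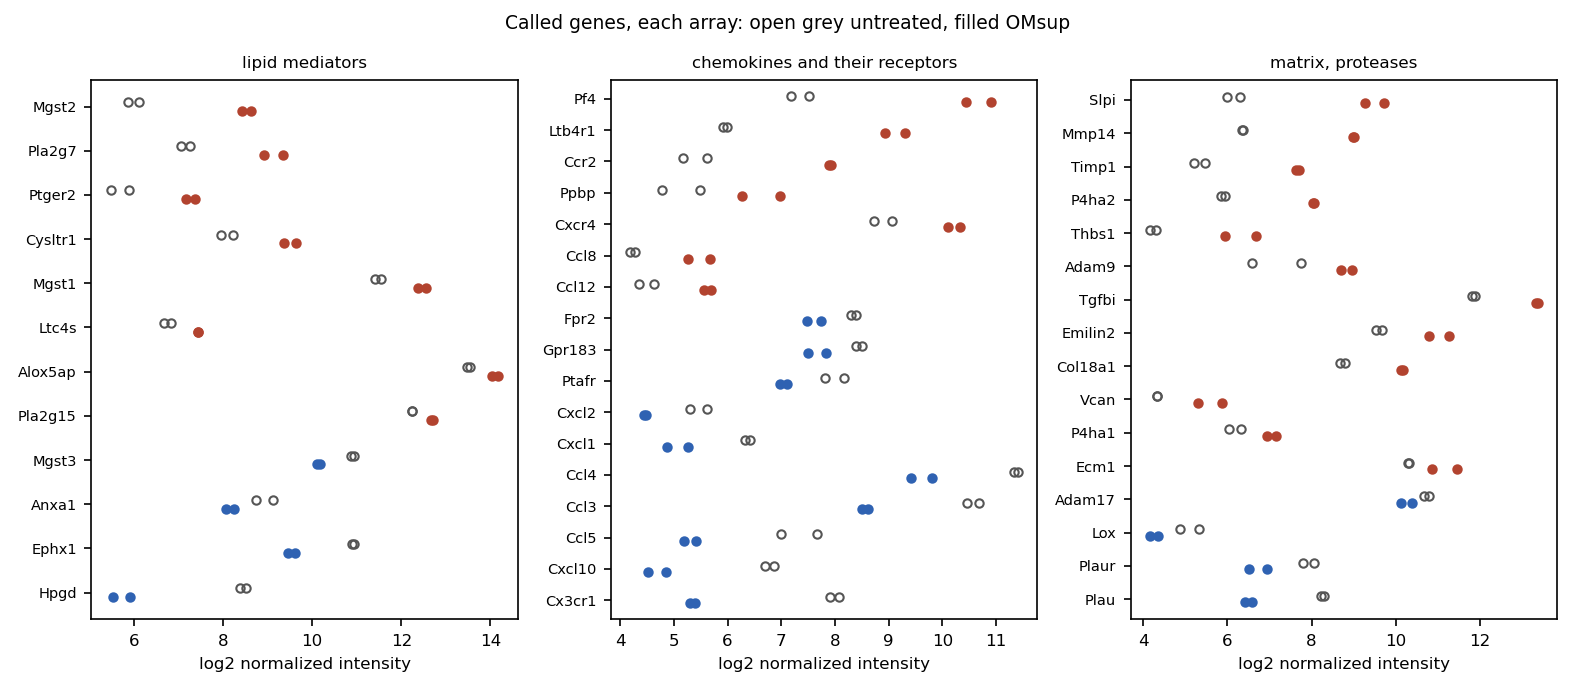
Log2 normalized intensity on each array (x axis) of the called genes of 3 kinds of function, lipid mediators, chemokines with chemoattractant receptors, and matrix proteins with proteases, with open grey circles for the 2 untreated and filled circles for the 2 OMsup arrays (red higher, blue lower). Hpgd, Cx3cr1 and Plau are the lowest rows of their panels, and Ltb4r1 and Mgst2 show wide gaps between groups. The genes are shown because they were called, so such gaps follow from the choice.

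Genes of the extracellular matrix and of its turnover rose in 12 of 39 cases (30.8%) and fell in 4 (10.3%), with a median of 0.23. Mmp14, the membrane-bound collagenase, read 6.35 and 6.37 on the untreated and 8.99 and 9.01 on the OMsup arrays, a change of 2.64 (SE 0.152, adjusted p = 3.01e-06). Its inhibitor Timp1 rose as well, from 5.47 and 5.22 to 7.70 and 7.63. Slpi, a secreted inhibitor of neutrophil elastase, read 6.31 and 5.99 against 9.27 and 9.71. P4ha2, a prolyl hydroxylase of collagen, changed by 2.15 (SE 0.15). Of the structural proteins, Tgfbi changed by 1.50 (SE 0.11), Emilin2 by 1.42 and Col18a1, the source of endostatin, by 1.42. Thbs1, thrombospondin 1, and Vcan, versican, were not detected on the untreated arrays and were at least 3.28-fold and at least 1.97-fold higher.

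Plau, the urokinase plasminogen activator, read 8.22 and 8.30 against 6.42 and 6.59, a change of -1.76 (SE 0.2, adjusted p = 0.000295). Plaur, its receptor, changed by -1.19 (SE 0.216, adjusted p = 0.00566), a call that did not hold under every setting. F13a1, the subunit of factor XIII that cross-links fibrin, read 7.20 and 7.04 against 10.35 and 10.15, a change of 3.13 (SE 0.202, adjusted p = 5.46e-06). Among growth and guidance factors 5 of 25 rose and 3 fell. Nrg1, neuregulin 1, was at least 16.5-fold higher than its undetected untreated level. The semaphorin genes Sema6b and Sema4a changed by 1.58 and 1.24, though a dimmer Sema6b probe changed by 0.34. Pdgfb, a platelet-derived growth factor subunit, changed by -1.53 (SE 0.209), and Ccn2, connective tissue growth factor, was not detected with OMsup and was at least 2.28-fold lower.

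The lists of surface receptors between immune cells and of phagocytosis moved in both directions. In co-stimulation and checkpoints 4 of 33 rose and 5 fell. Cd83, a maturation marker of antigen-presenting cells, read 9.39 and 9.55 against 7.19 and 7.29, a change of -2.23 (SE 0.154, adjusted p = 8.59e-06). Siglec1, the sialic acid receptor CD169, changed by -1.27. Cd300lf, a receptor of phosphatidylserine and ceramide, changed by 1.80 (SE 0.216), and Sirpb1a, an activating relative of SIRP alpha, by 2.58 (SE 0.183). Signals of the Sirpb and Cd300 families may include those of close relatives. In Fc receptors and phagocytic uptake 5 of 37 rose and 2 fell. Fcgr2b, the inhibitory IgG receptor, read 9.75 and 9.44 against 11.63 and 11.47, a change of 1.96 (SE 0.146, adjusted p = 1.28e-05), and its other probes changed by 0.24 to 1.80. Axl, a receptor for the uptake of dying cells, read 9.59 and 9.51 against 8.00 and 8.48.

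MHC class II genes fell in 7 of 11 cases (median -0.73), whereas the class I antigen presentation list had 1 of 17 genes higher and none lower (4 lower at an unadjusted p under 0.05 in limma). H2-Q5, a class I gene outside that list, was called lower, without holding under every setting. H2-M2, a non-classical class I gene, read 6.52 and 6.30 in untreated cells and was not detected with OMsup, at least 3.47-fold lower (adjusted p = 9.49e-06). In inflammasome and cell death genes 5 of 24 rose and none fell (1 at an unadjusted p under 0.05). Mefv, which encodes the inflammasome sensor pyrin, read 5.81 and 5.73 against 7.42 and 7.21, and Panx1, a channel that releases ATP, changed by 1.17 (SE 0.177). In the BCL2 family 2 of 19 fell. Bcl2l1, the survival protein BCL-XL, read 6.96 and 7.54 against 5.94 and 5.95.

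In metabolism, many genes of glucose use and sterol synthesis rose, and no gene of the respiratory chain list was called. Glycolysis and hypoxia genes rose in 19 of 32 cases (median 0.65) and cholesterol synthesis genes in 12 of 17 (median 1.01). Of the 43 tested genes of the respiratory chain and ATP synthase list none was called in limma, 1 had an unadjusted p under 0.05, and their changes ran from -0.46 to 0.44 (median -0.02). Ndufv3 and Cox7a1, respiratory chain genes outside that list, were called higher, without holding under every setting. In the citrate cycle and pyruvate entry list 2 of 24 rose, neither of which held under every setting. Slc2a1, the glucose transporter GLUT1, read 8.69 and 8.60 on the untreated and 10.90 and 11.04 on the OMsup arrays. Slc16a3, the lactate exporter MCT4, was undetected without OMsup and at least 2.86-fold higher with it, although its second probe changed by 0.124. Taldo1, transaldolase of the pentose phosphate pathway, changed by 0.72 (SE 0.0993), the called gene among 7 tested.

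Fatty acid and triglyceride synthesis genes rose in 5 of 24 cases (20.8%), with a median of 0.29 and none lower (2 at an unadjusted p under 0.05). Acss2, which makes acetyl-CoA from acetate, changed by 1.04 (SE 0.148, adjusted p = 0.0013), but a dimmer probe changed by 0.03. The desaturase and elongase genes Scd2, Scd1, Fads2 and Elovl6 changed by 0.68 to 0.93 and were called, without holding under every setting. In lipid uptake and cholesterol efflux 4 of 22 rose and 6 fell (27.3%). Nr1h3, the sterol sensor LXR alpha, read 8.88 and 8.95 against 7.12 and 6.83, a change of -1.94 (SE 0.161, adjusted p = 2.88e-05), and Abcg1, a cholesterol exporter, changed by -1.39 (SE 0.245). Apoe, which is in many cells an LXR target, rose by 0.63 (SE 0.101), and Fabp5, a fatty acid carrier, by 1.53 (SE 0.182).

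Amino acid and nucleotide genes moved both ways. Amino acid transporter genes rose in 3 of 16 cases (18.8%) and fell in 2 (12.5%). Nucleotide synthesis genes rose in 1 of 24 cases (4.17%) and fell in 3 (12.5%). Arg2, mitochondrial arginase, was not detected on the untreated arrays and was at least 8.31-fold higher (adjusted p = 3.33e-06). Psat1, an enzyme of serine synthesis, read 7.06 and 7.28 against 5.67 and 5.71, a change of -1.48 (SE 0.181, adjusted p = 0.00047), and 2 of 13 genes of serine and one-carbon metabolism fell. Slc7a11, the cystine importer, changed by 1.06 and Slc36a1, a lysosomal amino acid exporter, by 1.20. Uck2, a kinase that salvages uridine and cytidine, read 7.04 and 6.80 against 9.12 and 9.25, while Rrm2, a ribonucleotide reductase subunit of dividing cells, was not detected with OMsup and was at least 1.66-fold lower. The other Rrm2 probes changed by -0.54 to 0.09. Tfrc, the transferrin receptor, read 9.55 and 9.68 against 10.93 and 11.03, a change of 1.36 (SE 0.117), and both its probes rose.

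The general machinery of protein synthesis and quality control was little called. None of 18 tRNA synthetases, 29 proteasome genes or 45 splicing and mRNA turnover genes was called in limma, and the counts at an unadjusted p under 0.05 were 0, 1 and 4. Cytosolic ribosomal proteins had 2 of 32 lower (7 at an unadjusted p under 0.05, median -0.18), chaperones 2 of 32 lower (median -0.12) and endoplasmic reticulum folding 1 of 37 higher. Heatr1, a factor of ribosomal RNA processing, was an exception and read 8.62 and 8.57 against 10.20 and 10.30. In the lysosomal list 5 of 51 genes rose (9.8%) and 2 fell (3.92%), beside 4.53% and 4.77% of all named genes. The called cathepsins rose, with Ctsl, cathepsin L, from 6.24 and 6.20 to 7.96 and 8.65 and Ctsc, cathepsin C, from 11.20 and 11.11 to 12.48 and 12.55. The called proton pump subunits fell, with Atp6v0a1 at -1.34 (SE 0.228) and Atp6v1b2 at -0.75 (SE 0.114). In autophagy 5 of 34 rose, of which 2 held under every setting, and 1 fell. The largest rise was that of Ddit4, an inhibitor of mTORC1, at 1.93 (SE 0.185).

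The called genes of both cytoskeleton lists fell. Of 49 actin cytoskeleton genes 7 fell and none rose in limma (17 lower and 1 higher at an unadjusted p under 0.05, median -0.16), and of 26 tubulin and intermediate filament genes 4 fell and none rose (5 and 0, median -0.16). Tpm1, tropomyosin 1, read 10.39 and 10.26 on the untreated and 9.33 and 9.27 on the OMsup arrays, a change of -1.02 (SE 0.126, adjusted p = 0.000492), and a second probe changed by -1.06. Myo1e, a membrane-binding myosin, changed by -1.27 (SE 0.184), but its dimmer probe by -0.18. Tubb2b, a beta tubulin, changed by -1.14 (SE 0.147), and other tubulins are close enough in sequence to share its probes. Anln, a scaffold of the cleavage furrow in dividing cells, read 6.72 and 6.81 against 5.10 and 5.35. DNA replication and mitosis genes fell in 18 of 47 cases (median -0.47), and Anln may be read beside them. Adhesion genes moved both ways, 4 of 31 higher and 3 lower. Itga1, an integrin subunit that binds collagen, was at least 3.10-fold higher than its undetected untreated level.

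Transcription factors of macrophage lineage and activation were called in 17 of 61 cases, 7 higher (11.5%) and 10 lower (16.4%). The early growth response genes fell together. Egr2, which marks alternatively activated macrophages, read 9.38 and 9.51 on the untreated and 7.42 and 8.08 on the OMsup arrays, a change of -1.70 (SE 0.267, adjusted p = 0.00244). Egr1 read 7.07 and 6.84 against 5.36 and 5.35, and Egr3 was not detected with OMsup and was at least 2.45-fold lower, with its second probe at 0.15. Irf4, a factor of interleukin 4 responses, changed by -1.57 (SE 0.181), Ets1 by -1.99 (SE 0.216), Klf2 by -1.03 and Atf3 by -1.03. Among the risers, Atf5, a stress-induced factor, read 8.11 and 8.11 against 10.76 and 10.40, a change of 2.47 (SE 0.148, adjusted p = 3.33e-06). Batf changed by 1.18 (SE 0.163). Fosl2, an AP-1 subunit, changed by 2.16 (SE 0.158), while a dimmer probe changed by -0.04. Of 40 chromatin modifiers 3 rose (7.5%) and 1 fell (2.5%), shares near the 4.53% and 4.77% of all named genes. Kdm6b, a demethylase of histone H3 lysine 27, changed by 1.46 (SE 0.225), and Uhrf1, which maintains DNA methylation in dividing cells, by -1.61 (SE 0.252).

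**Figure D3:**
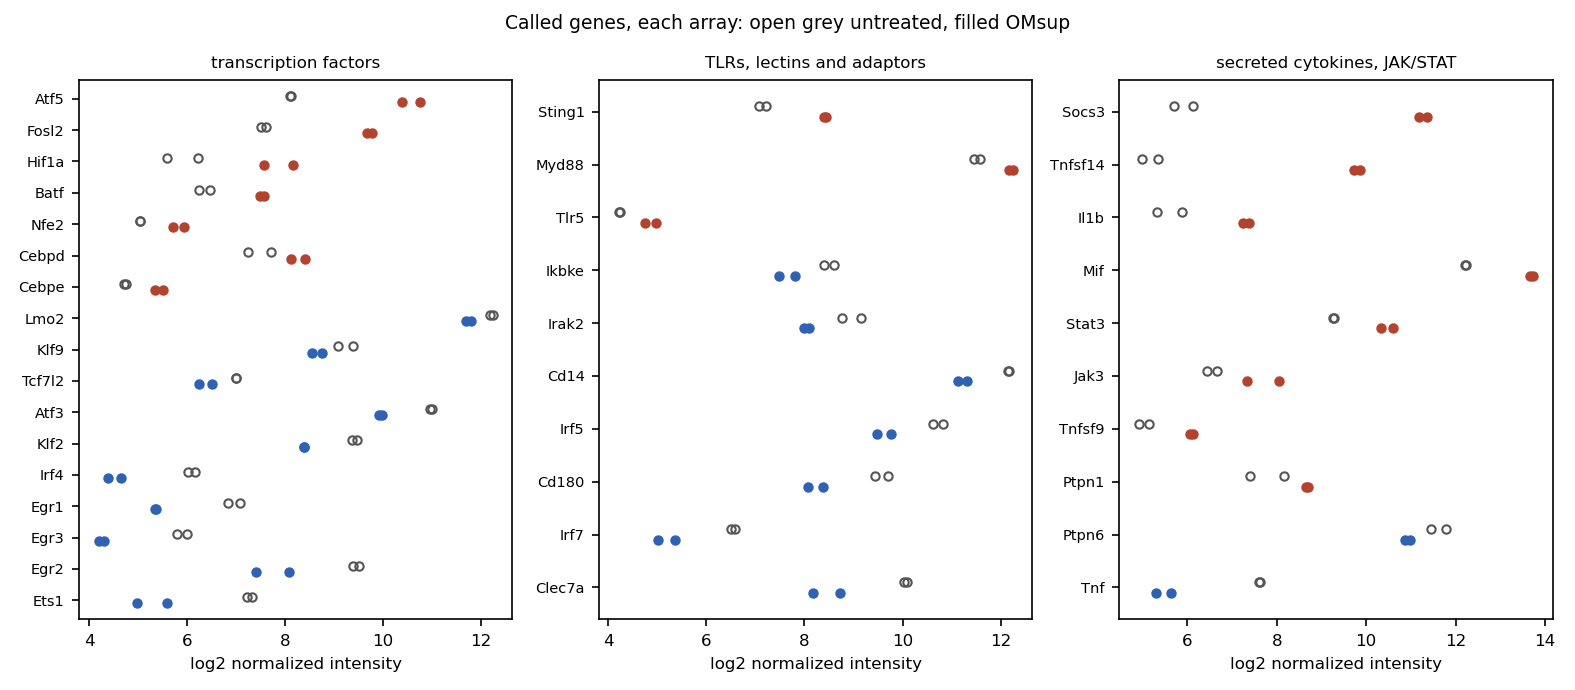
Log2 normalized intensity on each array (x axis) of the called transcription factors, of Toll-like receptors, lectins and adaptors, and of secreted cytokines with JAK and STAT genes, with open grey circles for the 2 untreated and filled circles for the 2 OMsup arrays (red higher, blue lower). Egr1, Egr2, Egr3 and Ets1 lie in the lowest rows, and Socs3 and Tnfsf14 have the widest gaps of their panel.

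Promoter sequences (RefSeq, GRCm38.p6) were found for 8212 of the 10068 tested genes, in 10503 windows of 250 bases before and 50 after a start site, and were searched on both strands. The interferon-stimulated response element was searched as GAAA, any 2 bases, and GAAA again, and was in 3.28% of these windows and 3.44% of all promoters in the table. Interferon response genes fell in 19 of 37 cases (median -0.68), and of the 14 windows of 13 of those that fell, 57.1% held the element. It was in 54.8% of the 31 windows of the whole tested list, so the share does not separate called from uncalled members, and in 5.13% of the windows of all genes called lower. The stretches of Cxcl10, a chemokine of interferon responses (change -2.09), Rsad2, the antiviral enzyme viperin (-2.21), and Ifit3, an interferon-induced RNA-response protein (-3.06), are shown because these genes fell most among the list's members with a match. Capitals mark the element or its reverse complement.
Cxcl10, chr5:92349063-92349122, minus strand: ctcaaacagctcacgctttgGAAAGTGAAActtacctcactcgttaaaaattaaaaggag
Rsad2, chr12:26456533-26456592, minus strand: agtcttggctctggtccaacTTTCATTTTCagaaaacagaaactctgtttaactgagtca
Ifit3, chr19:34583387-34583446, plus strand: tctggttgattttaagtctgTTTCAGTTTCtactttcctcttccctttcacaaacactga

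The core of the hypoxia response element, ACGTG, is short and lies within the E-box CACGTG, so matches are common. It was in 25.4% of the windows of tested genes, 19.6% of all promoters in the table, 31.5% of those of genes called higher and 19.9% of those of genes called lower. Of the 26 windows of the 19 glycolysis and hypoxia genes that rose, 17 (65.4%) held it. Of the 48 windows of the whole tested list, which include those 26, 27 (56.2%) held it, and the difference was not tested. Egln3, the prolyl hydroxylase PHD3 that is itself a hypoxia target, Ddit4 and Pgk1, phosphoglycerate kinase, are shown as risers of that list with a match before the start site. Egln3 was at least 10.5-fold higher than its undetected untreated level, with a second probe at 0.16, and Pgk1 changed by 2.05, with a second probe at 0.18. Capitals mark the last match in the window, the core or its reverse complement, and the Pgk1 stretch holds a further core in lower case near its start.
Egln3, chr12:54204064-54204123, minus strand: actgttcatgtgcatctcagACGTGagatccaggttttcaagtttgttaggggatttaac
Ddit4, chr10:59951918-59951977, minus strand: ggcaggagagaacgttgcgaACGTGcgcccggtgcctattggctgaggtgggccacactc
Pgk1, chrX:106186949-106187008, plus strand: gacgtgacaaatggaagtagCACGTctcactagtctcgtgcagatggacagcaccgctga

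The STAT motif TTCNNNGAA was in 6.92% of the windows of tested genes, 8.30% of all promoters in the table, 8.51% of the windows of genes called higher and 6.16% of those of genes called lower, so the shares lay close together. Socs3, Sphk1 and Pla2g7 rose by 5.35, 3.19 and 1.97 and have a match in capitals. A match is a description of the letters and shows no binding.
Socs3, chr11:117969481-117969540, minus strand: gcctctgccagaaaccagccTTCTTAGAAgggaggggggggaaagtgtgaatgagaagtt
Sphk1, chr11:116531776-116531835, plus strand: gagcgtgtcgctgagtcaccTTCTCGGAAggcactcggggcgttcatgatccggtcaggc
Pla2g7, chr17:43568286-43568345, plus strand: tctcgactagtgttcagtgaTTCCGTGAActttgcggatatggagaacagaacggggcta

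In glycan and sulfate transfer 5 of 49 genes rose (10.2%) and 6 fell (12.2%), beside 4.53% and 4.77% of all named genes. Of the sialyltransferases, St3gal5, the synthase of ganglioside GM3, read 8.93 and 9.12 on the untreated and 6.39 and 6.72 on the OMsup arrays, a change of -2.46 (SE 0.158, adjusted p = 5.46e-06), and St3gal6 was not detected with OMsup and was at least 2.47-fold lower. Gcnt2, which branches the carbohydrate chains of the I blood group, read 4.96 and 4.69 against 8.57 and 8.51. Of 36 ion channel genes 2 rose (5.56%) and 4 fell (11.1%). Kcnn4, a calcium-gated potassium channel, changed by -1.45 (SE 0.19), and Mcoln2, an endolysosomal cation channel, by 0.88 (SE 0.131). Of 33 solute carriers of sugar, lactate and ions 6 rose and 5 fell. Slc31a1, the copper importer, changed by 1.33 (SE 0.157). In membrane traffic 4 of 55 rose (7.27%) and 3 fell (5.45%), shares near the background. Rab7b, which routes cargo from late endosomes to the Golgi, changed by -1.21 (SE 0.158), and Rab27a, which docks secretory granules, by 0.91 (SE 0.157).

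Antimicrobial and granule genes included 6 of 26 higher (23.1%) and 4 lower (15.4%), and the granule proteins of neutrophils did not move as a block. Prtn3, proteinase 3, read 5.50 and 5.01 against 6.70 and 6.90, a change of 1.54 (SE 0.208), and Ctsg, cathepsin G, read 5.36 and 5.29 against 6.47 and 6.55. Both belong to primary granules, as does Mpo, which changed by 0.89 (SE 0.185, adjusted p = 0.0122). The secondary granule genes Ltf, Camp and Ngp changed by -1.09, -0.76 and -0.69. Of the 8 tested granulocyte markers, Mpo alone was called higher and these 3 lower. The remaining ones were not called, so the contrast of granule types covers called genes alone. The calls of Mpo, Ltf, Camp and Ngp did not hold under every setting. The summed intensity of the granulocyte markers ran from 1659 to 2043 in untreated and from 2127 to 2710 in OMsup cells, and the part of such cells in these changes was not tested. Saa3, the acute phase protein of macrophages, read 7.12 and 5.51 on the untreated arrays, a wider gap than in the other genes given here, and 11.96 and 12.04 on the OMsup arrays.

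The supernatant's effect was then read a second time, as ATRA+OMsup against ATRA, on the 4 arrays outside the OMsup and untreated groups. Both of its groups had the serum-free medium. Both comparisons take the spread of each probe from the fit of all 8 arrays, so the overlap of calls is not that of independent tests. In this second comparison 495 of 10068 named genes rose (4.92%) and 563 fell (5.59%). The 1661 called probes became 963 or 833 without the first or the second ATRA array. Of the genes called higher without ATRA, 323 were also called higher with it, 70.8% of the 456 and 65.3% of the 495. Of those called lower, 306 were called lower in both, 63.8% of the 480 and 54.4% of the 563. The sign was the same for 450 of 456 risers (98.7%) and 469 of 480 fallers (97.7%). Over all named genes the changes correlated at 0.804 (Pearson) and 0.661 (Spearman, n = 10068 genes, which share arrays within each comparison and are not independent), and the median ratio of the change with ATRA to that without was 0.868 over the called genes.

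The counts by list stayed close in some functions and differed in others, over the same tested genes. Lipid mediator genes had 8 higher and 5 lower with ATRA, matrix genes 12 higher and 3 lower, and inflammasome genes 5 higher and 1 lower. Hpgd changed by -2.45, Mgst2 by 2.85, Ccr2 by 2.58 and F13a1 by 4.21 in that comparison, all called. The Toll-like receptor list, with 3 higher and 7 lower before, had 6 higher and 5 lower with ATRA. Antimicrobial and granule genes had 9 higher and 1 lower, and fatty acid and triglyceride synthesis 2 higher and 1 lower. Actin genes had 11 lower, and tubulins and intermediate filaments 8 lower. Cholesterol synthesis had 8 higher (median 0.64), and replication and mitosis 27 lower and 1 higher (median -0.74). In the test of the difference, no gene of the Toll-like receptor, fatty acid, actin, tubulin, cholesterol or mitosis lists was called. The matrix list and the antimicrobial list each had 1 such gene. These counts therefore do not show that a list responded otherwise with ATRA. Some genes called with OMsup alone were not called in the second comparison. Cx3cr1 changed by -0.80, Il1b by 0.71, Klf2 by 0.17, Irf5 by -0.35, Cd14 by -0.36 and Apoe by 0.17 with ATRA present, and none of these 6 was called in the test of the difference, so they are not shown to differ.

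That test called 31 of 18503 probes and 21 of 10068 named genes (0.209%). The 31 probes became 17 to 20 without either untreated array, either ATRA array or the first OMsup array. Of the 21 genes, 8 had risen and 4 had fallen with OMsup alone. Cxcl1 and Cxcl2, which encode neutrophil attractants, were called in opposite directions, lower with OMsup alone and higher with OMsup on top of ATRA. The call of Cxcl2 with OMsup alone was lost when untreated array 1 was dropped. Cxcl2 read 5.61 and 5.30 untreated, was not detected with OMsup, read 5.39 and 5.40 with ATRA and 6.91 and 7.21 with both. St3gal5 and H2-M2 fell with OMsup alone and were not called with ATRA, where H2-M2 was already at 4.40 and 4.35 without OMsup. The plot of both changes shows that the named genes lie mainly along the line of equal change.

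**Figure D4:**
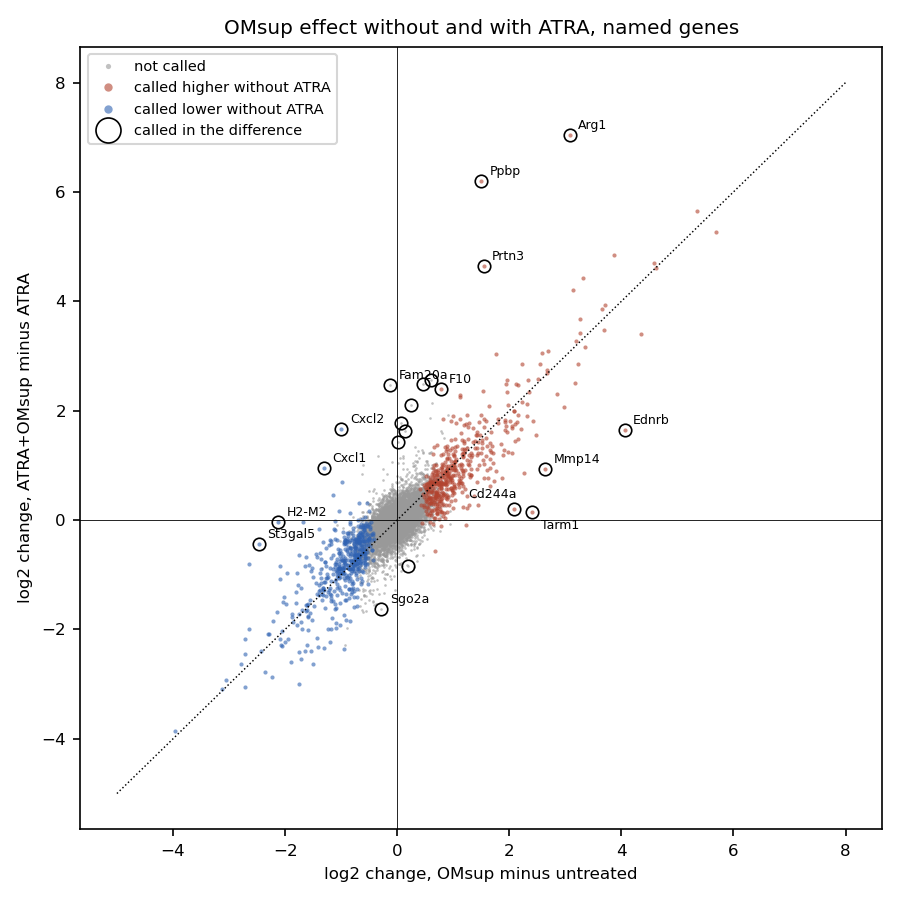
Log2 change with OMsup without ATRA (x axis, OMsup minus untreated) against the change with ATRA (y axis, ATRA+OMsup minus ATRA) for 10068 named genes, with genes called without ATRA in red (higher) or blue (lower), genes called in the difference circled and the dotted line marking equal change. Arg1, Ppbp and Prtn3 lie far above the line and Ednrb, Mmp14, Tarm1 and Cd244a below it.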

How the data were processed

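Total RNA was labelled with biotin and hybridized to a 1-colour Illumina mouse bead array, per the labels' protocols. The deposited non-normalized table holds, per the file headers, the intensity of each probe on each array on a linear scale and its detection p-value, and array medians of the intensity were 92.59 to 98.21. The software that made it is, in the sources used here, not given. A matrix that the authors deposited with normalized intensity served only as an alternative. Empty lines (1348) were left out, and 34885 probes had 1 gene symbol, 18 several and 10378 none.

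With limma 3.58.1 in R 4.3.3, neqc corrected the background from the detection p-values, quantile-normalized, added an offset of 16 and took log2 of the deposited intensity. Group means of all 8 arrays were fitted (lmFit) and tested by eBayes, trend included (prior degrees of freedom 6.726 beside 4 residual), with Benjamini-Hochberg adjustment over the 18503 tested probes per contrast and a limit of 0.05. A gene is shown by its brightest tested probe. "At least N-fold" sets the detected group against the detection level of the other. The fit was tested on simulated data.

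The members and the 62 lists (2177 genes) were chosen with earlier results of these data known, and no list was tested. Named are the 24 largest rises and falls whose OMsup arrays lie beyond both untreated arrays (the first 8 by name only), the largest called members of each list, and the largest or opposite genes of the difference. Other genes of the lists are named to describe a pathway, chosen after their values were seen. Alternatives changed the background correction, normalization, filter, probe choice, samples, moderation, a replicate block, a 2-fold limit and each array left out. Same-numbered arrays deviated together in some pairs of groups and not in others, so the numbers were not taken as pairs.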

Additional observations from a re-analysis of the deposited data

Results flagged for a closer look

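These genes stood out because the test of the difference itself, the change with OMsup on top of ATRA minus the change with OMsup alone, was called in limma. Positive differences were found for Ppbp (4.70, SE 0.42, adjusted p = 0.00184), Arg1 (3.95, SE 0.469, adjusted p = 0.00615), Prtn3 (3.10, SE 0.294, adjusted p = 0.00186), Cxcl2 (2.66, SE 0.259, adjusted p = 0.00186) and Fam20a (2.59, SE 0.268, adjusted p = 0.00231). Further ones were Cxcl1 (2.25, adjusted p = 0.0109), H2-M2 (2.08, adjusted p = 0.00231), St3gal5 (2.03, adjusted p = 0.004) and F10 (1.61, adjusted p = 0.0144). Arg1 was not detected untreated, Cxcl2 and H2-M2 were not detected with OMsup, and Fam20a was detected in neither group. Their changes with OMsup alone, and so these differences, rest partly on values below the detection level.

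Negative differences were found for Ednrb (-2.42, SE 0.232, adjusted p = 0.00186), Tarm1 (-2.27, SE 0.227, adjusted p = 0.00215), Cd244a (-1.88, SE 0.213, adjusted p = 0.00443), Mmp14 (-1.71, SE 0.215, adjusted p = 0.00793) and Sgo2a (-1.35, SE 0.218, adjusted p = 0.0473). Arg1 read 4.62 and 4.29 untreated, where it was not detected, 6.87 and 8.21 with OMsup, 6.59 and 6.84 with ATRA and 13.75 and 13.76 with both. Ednrb read 8.91 and 8.53 untreated, 12.59 and 12.96 with OMsup, 11.90 and 11.82 with ATRA and 13.38 and 13.63 with both. Tarm1 and Cd244a were not detected untreated, so their differences also rest partly on values below the detection level. They were detected with OMsup alone and read 4.46 and 4.34, and 4.38 and 4.49, with both agents. Ppbp read 6.28 and 6.97 with OMsup and 10.68 and 11.31 with both. The calls of Cxcl1, F10, Mmp14 and Sgo2a were lost under 5, 5, 5 and 9 of the alternative settings. The other 7 genes called in the difference, among them Akap7 and Socs2, were not called with OMsup alone.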

How the results depend on the processing

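The count of probes called with OMsup against untreated, 1449, was 1197 to 1495 under another background correction, normalization, filter, probe choice, moderation or set of arrays, 609 with a 2-fold limit and 2353 with the replicate block. Leaving out 1 array gave 776 to 1582, namely 954 and 776 when untreated array 1 or 2 was dropped and 930 and 843 when OMsup array 1 or 2 was dropped. The array left alone in its group is then assumed to vary like the other groups. For OMsup added to ATRA, 1661 became 659 with the 2-fold limit, 833 to 1580 without 1 array and 2484 with the replicate block. The difference called 31 probes, 69 with the replicate block and 17 to 34 without 1 array. The listed genes called, 350, became 189 with the 2-fold limit, 478 with the block and 220 to 377 without 1 array, the lowest counts without untreated array 1 (233) or 2 (220). No call of a named gene turned its direction, and 405 of 936 genes stayed called under all 17 settings. The replicate numbers were checked by the correlation of same-numbered deviations. It was 0.08143 between untreated and OMsup, 0.4377 between ATRA and ATRA+OMsup, and 0.04004 to 0.5093 over all pairs of groups. The highest value was that between OMsup and ATRA+OMsup, so arrays of the 2 comparisons shared some of their deviations. Scaling moved the median of all probes to at most 0.033. With 2 arrays per group, the number of arrays limits the precision, and probes below the detection level give a bound.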

Other observations

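Genes outside the function lists, named after their values were seen, rounded out the picture, and each call given here held under all 17 settings. Metabolic enzymes included Ak4, a mitochondrial adenylate kinase, which changed by 2.23, Pgm1, phosphoglucomutase, by 1.68, and Grhpr, glyoxylate reductase, by 1.66. Ffar2, a receptor of short-chain fatty acids, changed by 1.87 and Gpr35, a G protein-coupled receptor, by 1.60. Dnmt3l, a cofactor of DNA methyltransferases, changed by 2.15, Sorl1, a sorting receptor, by 1.59, and Acta2, smooth muscle actin, by 1.51, while the called genes of the actin list, which does not hold it, fell.

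Among falls, Cmpk2, a mitochondrial nucleotide kinase that neighbours Rsad2 and is induced by interferon, changed by -1.88. Il4i1, a secreted amino acid oxidase, changed by -1.36, Rnase6, an antimicrobial ribonuclease, by -1.62, and Qpct, glutaminyl cyclase, by -1.69. Myo10, a myosin of filopodia, and Rhoc, a small GTPase of actin regulation, changed by -1.38 and -1.31.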
